A study of Mus musculus with 17 samples.

Results

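Expression of 10 genes of the NF-kappaB pathway was followed across C2C12 lines expressing SRF or an SRF fusion. The genes were chosen by name for their place in the pathway, and each was found in the deposited count table, so they were 10 of the 15062 genes measured. They comprised the 5 subunits Rela, Relb, Rel, Nfkb1 and Nfkb2, the 3 inhibitors Nfkbia, Nfkbib and Nfkbie, the feedback regulator Tnfaip3, and the adaptor Traf1. C2C12 is an established line of mouse myoblasts, the precursor cells of skeletal muscle fibres. All 6 groups were C2C12 cells cultured in medium with fetal bovine serum: the empty vector pMSCV, SRF alone, and the fusions SRF-RELA, SRF-FOXO1, SRF-PDGFRB and SRF-ICA1L, each line named for what it expressed. SRF is a transcription factor of muscle and cytoskeletal genes, and the 4 fusions pair its name with that of another gene. Each group had 3 libraries of mRNA sequencing, except SRF-PDGFRB with 2. Whether a line was a clone or a pool, the time of harvest, and whether libraries came from separate cultures are not given in the sources used here, so p-values measure only the spread between these libraries.

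NF-kappaB dimers are assembled from the Rel family of subunits and are held in the cytoplasm by IkappaB proteins until a stimulus such as TNF or IL-1 triggers destruction of the inhibitor. The genes for several inhibitors are themselves NF-kappaB targets, which closes negative feedback loops. In muscle cells, activity of the canonical pathway is known to restrain myogenic differentiation.

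Promoter sequences are shown for Nfkbia, Tnfaip3, Rel and Rela, which differed with the replicate number of the libraries in 1 direction, and for Traf1, which differed in the other. The windows are the 250 bases before the annotated start site in RefSeq (GRCm38.p6), written 5′ to 3′ along the gene, and capitals mark each match to the kappaB consensus on either strand.
Nfkbia, chr12:55492648-55492897, minus strand: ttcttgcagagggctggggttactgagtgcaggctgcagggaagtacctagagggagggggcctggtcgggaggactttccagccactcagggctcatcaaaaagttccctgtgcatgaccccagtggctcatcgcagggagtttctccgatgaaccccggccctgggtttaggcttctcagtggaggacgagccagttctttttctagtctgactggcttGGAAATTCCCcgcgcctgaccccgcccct
Tnfaip3, chr10:19015411-19015660, minus strand: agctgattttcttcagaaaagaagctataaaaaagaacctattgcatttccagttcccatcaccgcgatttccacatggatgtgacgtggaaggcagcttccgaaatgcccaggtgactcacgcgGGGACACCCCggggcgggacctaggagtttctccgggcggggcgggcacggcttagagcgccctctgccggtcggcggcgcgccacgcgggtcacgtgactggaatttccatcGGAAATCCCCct
Rel, chr11:23770970-23771219, minus strand: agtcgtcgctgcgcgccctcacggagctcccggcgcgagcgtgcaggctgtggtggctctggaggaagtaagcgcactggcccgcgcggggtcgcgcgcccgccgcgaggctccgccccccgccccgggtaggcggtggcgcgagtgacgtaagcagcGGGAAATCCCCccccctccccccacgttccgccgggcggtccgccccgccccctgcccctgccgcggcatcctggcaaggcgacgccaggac
Rela, chr19:5637291-5637540, plus strand: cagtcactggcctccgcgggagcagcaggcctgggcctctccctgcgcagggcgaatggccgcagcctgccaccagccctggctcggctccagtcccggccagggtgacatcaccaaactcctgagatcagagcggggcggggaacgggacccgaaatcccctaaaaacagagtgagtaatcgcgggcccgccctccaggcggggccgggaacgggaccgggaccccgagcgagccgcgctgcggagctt
Traf1, chr2:34961773-34962022, minus strand: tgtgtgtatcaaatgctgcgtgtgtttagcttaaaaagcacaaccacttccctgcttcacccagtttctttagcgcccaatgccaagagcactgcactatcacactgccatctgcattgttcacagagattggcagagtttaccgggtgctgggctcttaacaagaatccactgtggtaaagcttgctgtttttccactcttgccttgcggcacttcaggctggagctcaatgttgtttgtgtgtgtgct

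The Nfkbia window held 1 match, from 29 to 20 bases before the start. The Tnfaip3 window held 2 matches, at 125 to 116 and at 12 to 3 bases before the start, and the Rel window held 2 that overlap each other, between 92 and 82 bases before the start. The Rela and Traf1 windows held none. Entries were found for 8 of the 10 members, all but Relb and Nfkb1, with 11 windows in all. A match was present in 7 of the 11 windows, which belonged to 5 members (Nfkbia, Tnfaip3, Rel, Nfkbie and Nfkb2). A further Tnfaip3 window, not shown, held none. Relb differed with the replicate number in the direction of Nfkbia but had no window. Nfkbie and Nfkb2 did not pass the threshold for the number given below. Of all 32851 promoter windows of the same length, 7.25% held a match and 1.03% held at least 2. The CArG box, the sequence bound by SRF, was present in 0 of the 11 windows and in 1.47% of all windows. These matches describe letters in the reference and no binding was measured.

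Depth was even, at 20901442 to 23543734 counts per library. Srf itself, which checks the SRF label, was at 1128 ± 504 CPM (SD, n = 3) in the SRF libraries and 81.3 ± 13.7 CPM (SD, n = 3) in pMSCV. In the lines expressing a fusion its mean was between 76.0 and 192 CPM. CPM are read counts divided by the TMM-adjusted library total. The 6 myoblast markers (Myod1, Myf5, Cdh15, Des, Myog and Vgll2) were all measured and summed to 939 to 1315 CPM in pMSCV, 133 to 171 in SRF-FOXO1, 222 to 504 in SRF-RELA, 289 to 779 in SRF-ICA1L and 507 to 1020 in SRF. The 2 SRF-PDGFRB libraries stood apart from each other, with sums of 68.1 and 1562 CPM for the same markers. Of 9 immune cell markers 3 were in the table, and they summed to 14.97 to 26.8 CPM. Interferon-response genes summed to 395 and 241 CPM in SRF-PDGFRB and to 28.8 to 120 CPM in the other libraries. In bulk samples, fewer cells of a type and less RNA per cell cannot be told apart.

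Among the members, levels per kilobase of exon (RPKM) were compared over all 17 libraries. Nfkbia was the most abundant at a mean of 77.0 RPKM, followed by Rela at 28.01, Nfkb2 at 17.8, Nfkb1 at 13.2 and Nfkbib at 12.2. Tnfaip3 followed at 8.87 RPKM, Rel at 3.74, Relb at 3.28 and Nfkbie at 1.88, while Traf1 was lowest at 0.408. The ranges of neighbours in this order overlapped: Nfkbia ran from 19.5 to 246 RPKM and Rela from 22.1 to 38.3.

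The same libraries differed far more in some members than in others. The highest library exceeded the lowest by 29.7 times for Traf1, 28.6 times for Tnfaip3 and 12.6 times for Nfkbia. That ratio was 3.38 for Relb and 2.83 for Rel, and from 1.73 to 2.32 for Rela, Nfkb1, Nfkb2, Nfkbib and Nfkbie. Across the 10389 genes with a mean of at least 5 CPM, the median ratio was 2.09 and the 90% quantile was 5.27. Traf1 was not among these genes, as its mean was lower. Its lowest library held 8 reads, where counting error is large. The SRF-PDGFRB library numbered 1 was the highest of all 17 for Rela, Relb, Nfkbia, Nfkbib, Nfkbie and Tnfaip3, and the SRF-FOXO1 library numbered 3 was the lowest for Rela, Nfkb2, Nfkbib, Tnfaip3 and Traf1.

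**Figure D1:**
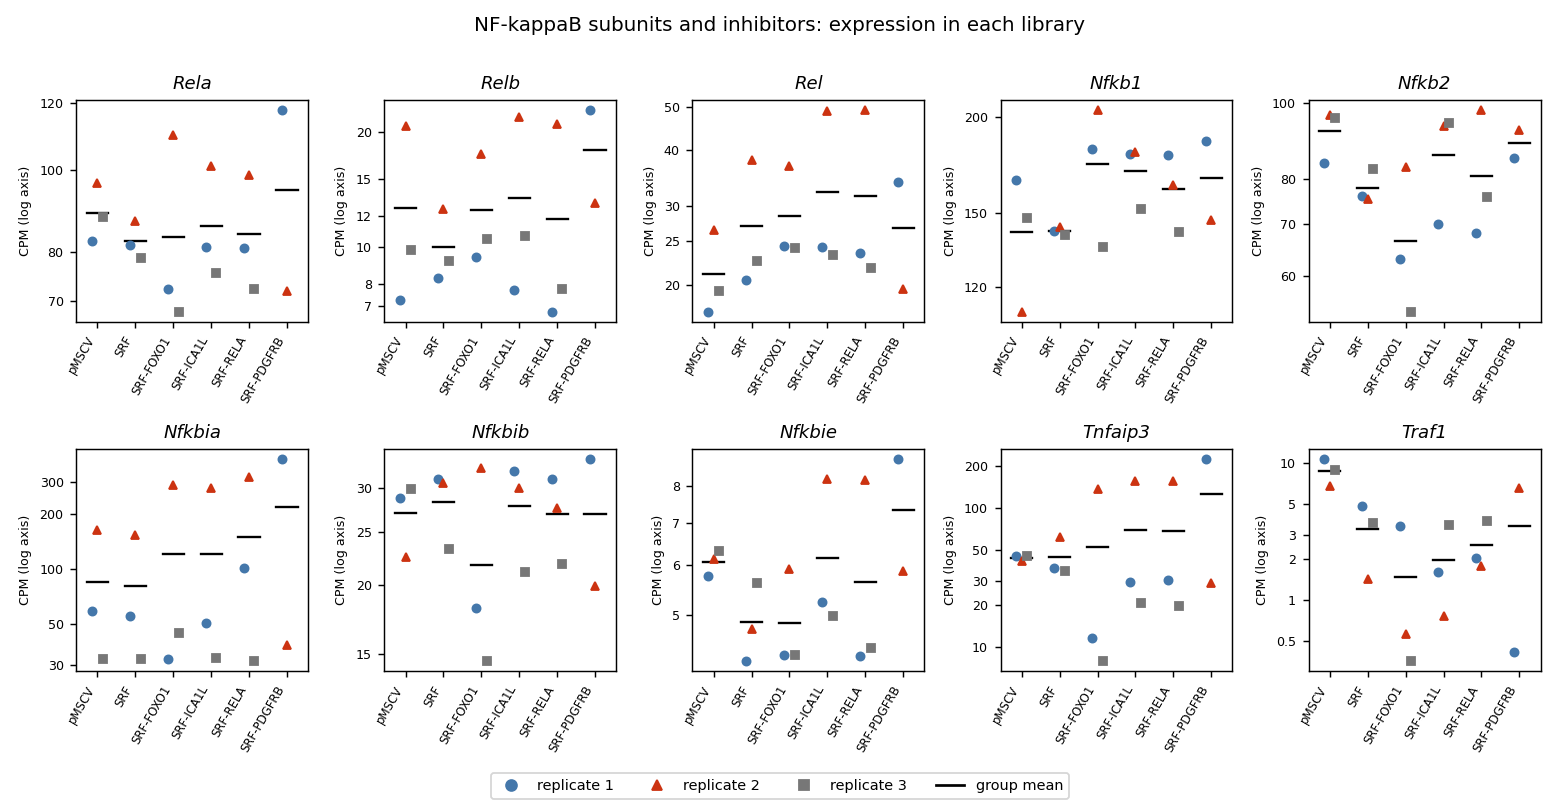
Expression of the 10 genes in each library, in TMM-scaled CPM on a log axis, by group, with symbols for the replicate number and a bar for the group mean. Nfkbia was highest in replicate 2 of each of the 5 groups of 3 libraries, and Traf1 was higher in each pMSCV library than in all 14 others.

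The transcription factor subunits were examined first. Rela encodes p65, the subunit with the transactivation domain used in the canonical pathway. Its levels in replicates 1, 2 and 3 were 82.3, 96.5 and 88.0 CPM in pMSCV, 81.5, 87.0 and 78.7 CPM in SRF, and 80.9, 98.5 and 72.2 CPM in SRF-RELA. SRF-FOXO1 had 72.2, 109.8 and 68.0 CPM, SRF-ICA1L had 81.1, 101 and 75.5 CPM, and the 2 SRF-PDGFRB libraries had 118 and 71.8 CPM. The groups overlapped, and the SRF-RELA mean of 83.9 ± 13.4 CPM (SD, n = 3) lay within 1 SD of the pMSCV mean of 88.9 ± 7.16 CPM (SD, n = 3). Counts for the gene Rela were therefore not higher in the line whose label names RELA, and which species and part of RELA the construct carries is not given in the sources used here.

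Relb and Rel, which encode the subunits RelB and c-Rel, were less abundant. Relb was at 7.24, 20.8 and 9.81 CPM in pMSCV, 8.27, 12.6 and 9.15 CPM in SRF, and 6.76, 20.9 and 7.74 CPM in SRF-RELA. The second library of each of these groups stood above the other two, and so it did in SRF-FOXO1 (9.42, 17.5 and 10.5 CPM) and SRF-ICA1L (7.70, 21.9 and 10.7 CPM). In SRF-PDGFRB the first library was the higher one, with 22.8 against 12.99 CPM. Rel followed the same order, with 17.4, 26.5 and 19.3 CPM in pMSCV, 20.4, 38.1 and 22.6 CPM in SRF, and 23.6, 49.3 and 21.8 CPM in SRF-RELA. It was at 24.4, 37.0 and 24.1 CPM in SRF-FOXO1, 24.2, 49.0 and 23.3 CPM in SRF-ICA1L, and 33.9 and 19.5 CPM in SRF-PDGFRB. Set against the pMSCV library of the same number, Rel was higher in all 12 libraries of the SRF, SRF-RELA, SRF-FOXO1 and SRF-ICA1L lines, as were 4.23% of all genes. In SRF-PDGFRB it was higher in the first library and lower in the second, and no adjusted p passed the threshold for it in any comparison between lines.

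Nfkb1 and Nfkb2 encode the precursors p105 and p100, which are processed to the DNA-binding subunits p50 and p52. Nfkb1 was at 142 ± 27.6 CPM in pMSCV, 142 ± 1.69 in SRF, 161 ± 18.5 in SRF-RELA, 170.1 ± 16.2 in SRF-ICA1L and 174 ± 35.1 in SRF-FOXO1 (SD, n = 3 each). Nfkb2 was at 92.1 ± 7.18 CPM in pMSCV and lowest in SRF-FOXO1 at 66.6 ± 14.6 CPM (SD, n = 3 each), with the 3 SRF-FOXO1 libraries at 63.1, 82.7 and 54.1 CPM. All 3 lay below the lowest pMSCV library, at 83.8 CPM, as was the case for 11.6% of all genes. The 3 SRF libraries, at 76.0, 75.4 and 82.3 CPM, did so too, as was the case for 5.15% of genes. The exons of Nfkb2 share bases with Psd and AC114539.1 on the other strand, and those of Nfkbib with Ccer2 and Sirt2. The strand setting used in counting is not given in the sources used here, so reads from these pairs may not be told apart.

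Nfkbia encodes IkappaB-alpha, the inhibitor that is degraded and then resynthesised in the canonical response. In replicates 1, 2 and 3 it was at 58.7, 164 and 32.2 CPM in pMSCV, 55.7, 154 and 32.2 CPM in SRF, and 101, 318 and 31.4 CPM in SRF-RELA. SRF-FOXO1 had 32.1, 286 and 44.9 CPM, SRF-ICA1L had 50.7, 278 and 32.8 CPM, and SRF-PDGFRB had 397 and 38.4 CPM. The replicate numbered 2 exceeded the mean of replicates 1 and 3 by 3.50 to 7.44 times in the 5 groups of 3, and the ranges of all 6 groups overlapped. Nfkbib and Nfkbie, which encode IkappaB-beta and IkappaB-epsilon, ranged only from 14.5 to 33.8 CPM and from 4.23 to 8.82 CPM over the 17 libraries, and no group stood apart from all the others.

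Tnfaip3 encodes A20, a ubiquitin-editing enzyme that ends signalling to NF-kappaB. It was at 45.0, 41.7 and 45.1 CPM in pMSCV, 37.3, 61.6 and 35.1 CPM in SRF, and 11.6, 138 and 7.85 CPM in SRF-FOXO1. It was at 30.2, 156 and 19.7 CPM in SRF-RELA, 29.4, 157 and 20.7 CPM in SRF-ICA1L, and 225 and 29.0 CPM in SRF-PDGFRB. The pMSCV libraries were alike, whereas within each of the 4 fusion groups 1 library was several times the others. In SRF-FOXO1, replicate 2 was 14.3 times the mean of replicates 1 and 3, against 0.927 times in pMSCV.

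Traf1 encodes an adaptor of TNF receptor signalling whose gene is a known NF-kappaB target in other cells. It was at 10.6, 6.83 and 8.93 CPM in pMSCV, 4.86, 1.42 and 3.66 CPM in SRF, and 3.49, 0.563 and 0.357 CPM in SRF-FOXO1. SRF-ICA1L had 1.59, 0.759 and 3.52 CPM, SRF-RELA had 2.01, 1.78 and 3.78 CPM, and SRF-PDGFRB had 0.413 and 6.54 CPM. All 14 libraries of the other groups lay below the 3 pMSCV libraries, although the second SRF-PDGFRB library came close to the lowest of them. Of all genes, 0.73% had every other library below the 3 of pMSCV, and Traf1 was the 1 member that did. The opposite order, every other library above pMSCV, held for 0.671% of genes and for 0 members. Its counts were small, from 8 to 230 reads per library.

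To ask whether the lines differed in NF-kappaB genes, each was compared with pMSCV, each fusion with SRF, and SRF-RELA with the other fusions, by edgeR's quasi-likelihood test over all 17 libraries with Benjamini-Hochberg adjustment over 15062 genes. The threshold for a call was 0.05 on the adjusted p. Against pMSCV, 0 of the 10 members were called in SRF (0.00664% of all genes were called), SRF-FOXO1 (0.71%), SRF-ICA1L (0%), SRF-RELA (0%) and SRF-PDGFRB (0.0199%). Against SRF, 0 members were called in SRF-FOXO1 (0.00664% of all genes), SRF-ICA1L (0%), SRF-RELA (0.00664%) and SRF-PDGFRB (0.0531%). For SRF-RELA, 0 members were called against SRF-FOXO1 (0% of all genes), SRF-ICA1L (0%) and SRF-PDGFRB (0.00664%). At an unadjusted p under 0.05, edgeR gave 2 members for SRF-FOXO1 against pMSCV (Nfkb2 and Traf1, beside 20.9% of all genes), 1 for SRF-ICA1L against pMSCV (Traf1, beside 6.23%) and 0 in the other comparisons. DESeq2 called 1 member, Traf1, in SRF-FOXO1 against pMSCV (adjusted p = 0.0410), beside 9.07% of the genes it gave an adjusted p. It called 0 in the other 11, and gave no p for Tnfaip3. These member counts were near the background of their comparison.

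The log2 fold changes of the subunits against pMSCV ran from -0.47 (SE 0.18) for Nfkb2 in SRF-FOXO1 to 0.61 (SE 0.39) for Rel in SRF-ICA1L. On the same scale the median of all the members was -0.093 in SRF, -0.046 in SRF-RELA, -0.056 in SRF-FOXO1, 0.066 in SRF-ICA1L and 0.25 in SRF-PDGFRB. The median of all genes stayed between -0.016 and 0.0084. These 5 comparisons share the pMSCV libraries. For Nfkbia the log2 fold change was 0.82 (SE 1.14) in SRF-RELA and 1.36 (SE 1.25) in SRF-PDGFRB, the first smaller than its error and the second close to it. The SRF-RELA value became -0.36 without its replicate 2, and the SRF-PDGFRB value -1.16 without its replicate 1. Tnfaip3 gave 0.65 (SE 1.09) in SRF-RELA, which became -0.82 without replicate 2 of that group. In SRF-PDGFRB it gave 1.53 (SE 1.20), which became -0.61 without replicate 1. Against SRF, the SRF-RELA line gave 0.026 (SE 0.21) for Rela and 0.90 (SE 1.14) for Nfkbia, and the second became -0.28 without SRF-RELA replicate 2.

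Traf1 had the lowest log2 fold changes of the members, at -2.57 (SE 0.95) in SRF-FOXO1, -2.16 (SE 0.94) in SRF-ICA1L, -1.80 (SE 0.92) in SRF-RELA, -1.41 (SE 0.91) in SRF and -1.34 (SE 1.04) in SRF-PDGFRB. Same-numbered libraries of SRF-RELA, SRF-ICA1L, SRF and pMSCV deviated together, so these 12 libraries were also fitted with the number as a block. They were chosen for that pairing in these same data, so smaller errors with the block were favoured in advance. With the block, edgeR's quasi-likelihood test called Traf1 lower in SRF-ICA1L (log2 fold change -2.33, SE 0.38, Benjamini-Hochberg adjusted p = 0.0133) and in SRF-RELA (-1.85, SE 0.37, adjusted p = 0.0165). The block over all 17 libraries did not call it, at -2.26 (edgeR adjusted p = 0.483) and -1.82 (edgeR adjusted p = 0.461). In SRF the fit of 12 libraries with the block gave -1.52 (SE 0.36, edgeR adjusted p = 0.161), and 0.00683% of all genes were called lower. In that fit of 12 libraries, Traf1 was 1 of 10 members called lower in SRF-ICA1L and in SRF-RELA. The share of all genes called lower was 1.65% in SRF-ICA1L and 3.29% in SRF-RELA. The call in SRF-ICA1L was lost without pMSCV replicate 1 (-2.29, edgeR adjusted p = 0.0657), SRF-ICA1L replicate 1 (-2.16, 0.0808) or SRF-ICA1L replicate 2 (-2.12, 0.0866). The call in SRF-RELA was lost without pMSCV replicate 1 (-1.82, edgeR adjusted p = 0.0685), SRF-RELA replicate 1 (-1.61, 0.0956) or SRF-RELA replicate 3 (-1.96, 0.0555).

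The other members stayed above the threshold with the block. Against SRF, the block gave 0 members in SRF-ICA1L (0.0956% of all genes called, 0.041% lower) and 0 in SRF-RELA (0.656% called, 0.157% lower), where 0 and 1 members had an unadjusted p under 0.05, beside 9.08% and 17% of all genes. Rel gave a log2 fold change of 0.55 (SE 0.14) in SRF-ICA1L with an edgeR adjusted p of 0.0656, and 0.52 (SE 0.14) in SRF-RELA with 0.0542. Nfkbia gave 0.61 (SE 0.23) in SRF-RELA with an edgeR adjusted p of 0.149. For Tnfaip3 the value in SRF-RELA was -0.035 (SE 0.55), opposite in sign to the fit without the block.

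**Figure D2:**
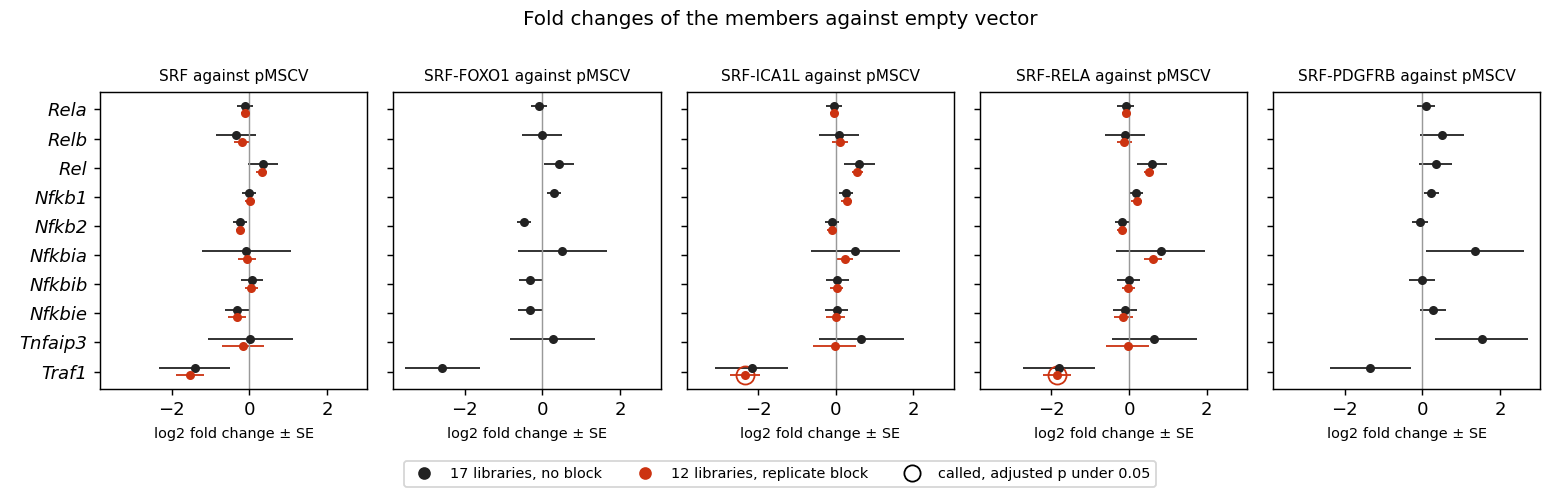
Log2 fold changes of the 10 genes against pMSCV with their standard errors, from the fit of 17 libraries (black) and from the fit of 12 libraries with the replicate number as a block (red, given for 3 of the 5 lines). Circles mark the calls, which are Traf1 in the fit with the block, in SRF-RELA (-1.85) and in SRF-ICA1L (-2.33).

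Myoblast markers moved beside Traf1. With the block, edgeR called 5 of the 6 markers lower in SRF-ICA1L, and in SRF-RELA it called all 6. Cdh15, a cadherin of myoblasts and satellite cells, fell by 1.41 and 1.99 on the log2 scale in these lines. Of 9 measured muscle fibre markers, 2 and 3 were called lower. Without the block, the fit of 17 libraries called 0 of the 6 myoblast and 0 of the 9 fibre markers in these lines. Across single libraries, the SRF-PDGFRB library with the lowest myoblast sum (68.1 CPM) had 0.413 CPM of Traf1, and the one with the highest sum (1562 CPM) had 6.54 CPM. Other libraries departed from this order. SRF replicate 3 had a sum of 1020 CPM and 3.66 CPM of Traf1, against 939 and 10.6 CPM in pMSCV replicate 1. The part of the markers in the Traf1 result was not tested.

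**Figure D3:**
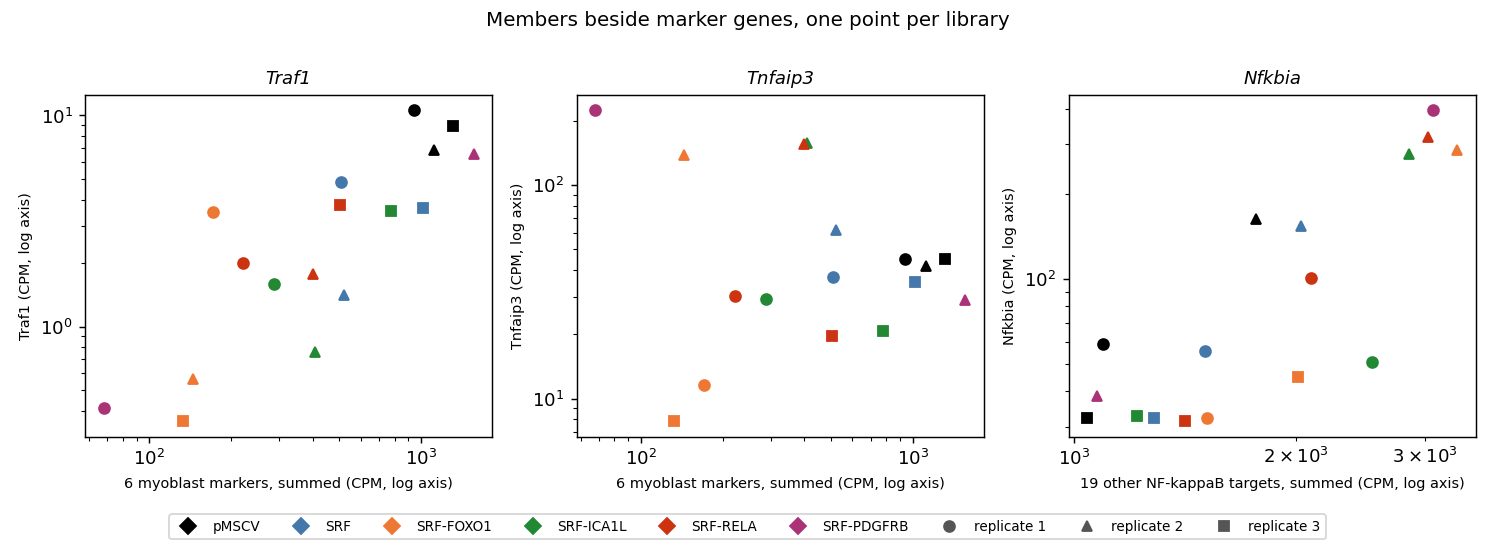
Traf1 and Tnfaip3 against the summed CPM of 6 myoblast markers, and Nfkbia against the summed CPM of 19 other NF-kappaB target genes, 1 point per library on log axes, with colours for groups and symbols for replicate numbers. The 3 pMSCV libraries and the second SRF-PDGFRB library have the 4 highest Traf1 levels, and the 6 libraries with the highest Nfkbia include replicate 2 of each group of 3.

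The replicate number itself was then tested as a term in the 12 libraries, with the group kept in the model. These libraries were taken because those of the same number deviated together in these data. A high share of genes differing with the number was therefore favoured in advance. By edgeR's quasi-likelihood F test with Benjamini-Hochberg adjustment, 6 of the 10 members differed with the number, against 52% of all 14639 genes tested, so the share of members was near the background. Nfkbia had the lowest adjusted p, at 6.81e-05. Its replicate 2 was 1.77 (SE 0.20) above replicate 1 and its replicate 3 was 0.98 below replicate 1 on the log2 scale. Relb was 1.33 (SE 0.18) higher in replicate 2 than in replicate 1 (edgeR adjusted p = 8.2e-04) and Rel was 0.91 (SE 0.12) higher (edgeR adjusted p = 6.23e-04). Tnfaip3 was 1.55 (SE 0.48) higher (edgeR adjusted p = 0.0207) and Rela 0.23 (SE 0.09) higher (edgeR adjusted p = 0.0406), while Traf1 was 0.89 (SE 0.33) lower (edgeR adjusted p = 0.0261). Nfkb1, Nfkb2, Nfkbib and Nfkbie did not pass the threshold. The count was between 3 and 7 when 1 library was left out. It was 3 (Relb, Rel and Nfkbia) without SRF-ICA1L replicate 2, SRF-RELA replicate 2 or SRF-RELA replicate 3.

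A fit of 15 libraries that added SRF-FOXO1 gave 5 members, against 29% of all genes, and Traf1 did not pass in it (edgeR adjusted p = 0.117). In all 5 groups of 3 libraries, replicate 2 was the highest for Rela, Relb, Rel and Nfkbia. Tnfaip3 was highest in replicate 2 in 4 of the 5, pMSCV being the exception, and Traf1 was lowest in replicate 2 in 4 of the 5, with SRF-FOXO1 the exception. In SRF-PDGFRB the order was the opposite, with replicate 1 at 10.3 times replicate 2 for Nfkbia, 7.75 times for Tnfaip3 and 1.76 times for Relb. What the replicate number stands for is not given in the sources used here, and whether it marks a culture, a day or a library batch cannot be told apart.

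The same 12 libraries, taken for their pairing by number, were used for shares of variance. Of the variance of log2 CPM, 91.5% went with the replicate number for Nfkbia, 86.5% for Relb, 74.2% for Rel, 72% for Rela and 60.3% for Tnfaip3. The median over all genes was 49.6%. The group accounted for 4.19% for Nfkbia, 3.97% for Relb and 0.128% for Tnfaip3, against a median of 19.5% over all genes. Traf1 was the reverse, with 66.3% for the group and 22.7% for the number. Nfkb1 also had a larger share for the group (38%) than for the number (19.5%).

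**Figure D4:**
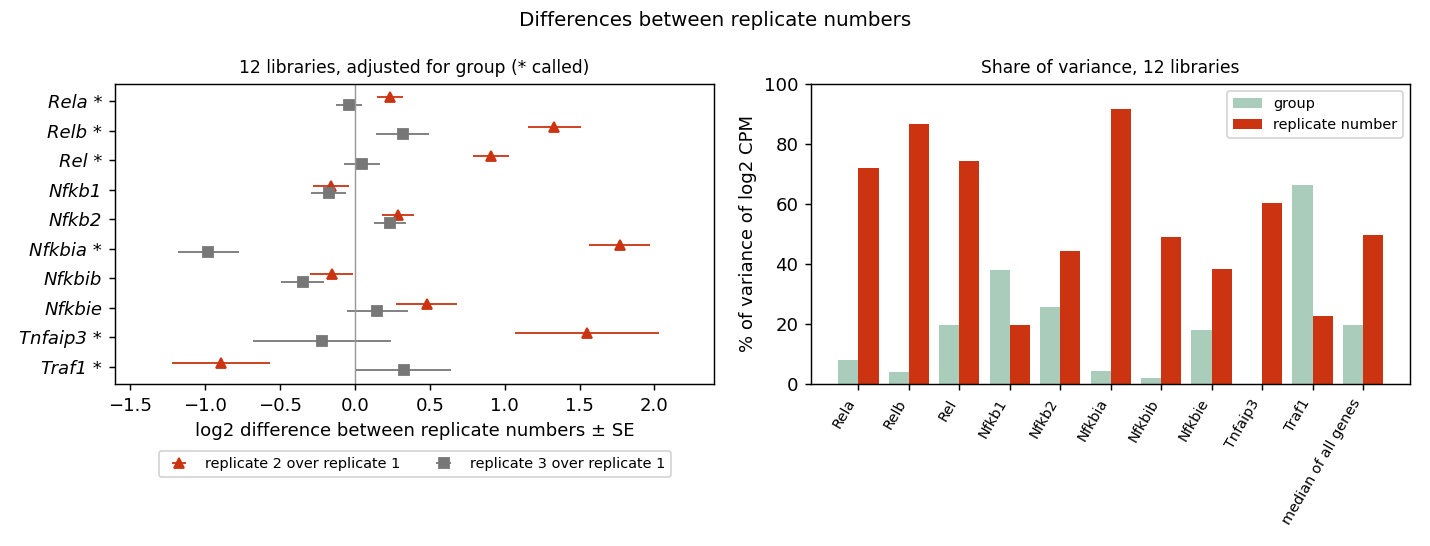
Left, log2 differences of replicates 2 and 3 from replicate 1 with standard errors in 12 libraries, adjusted for group, with asterisks for members that passed the threshold. Right, percent of the variance of log2 CPM accounted for by group and by replicate number, where the number takes 91.5% for Nfkbia and the group takes 66.3% for Traf1.

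The rest of the pathway was read from 4 lists of receptors, kinases and adaptors, further negative regulators, and other target genes. In the fit of 17 libraries, 1 of their genes was called in the 5 comparisons with pMSCV. This was Csf1, the macrophage growth factor, which rose by 1.32 (SE 0.27) on the log2 scale in SRF-FOXO1 (edgeR adjusted p = 0.0426). Its levels were 190, 314 and 384 CPM in pMSCV and 615, 746 and 860 CPM in SRF-FOXO1. The rise was not limited to SRF-FOXO1. Csf1 was at 402, 431 and 512 CPM in SRF and 834, 545 and 505 CPM in SRF-ICA1L. It was at 657, 582 and 617 CPM in SRF-RELA, and 583 and 349 CPM in SRF-PDGFRB. The call was lost when either pMSCV replicate 1 (log2 fold change 1.08) or pMSCV replicate 3 (1.55) was left out, and likewise without SRF-FOXO1 replicate 1 (1.44), 2 (1.32) or 3 (1.20).

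With the block in 12 libraries, more of these genes were called, as were more genes in all (2.99% in SRF-ICA1L, 6.48% in SRF-RELA and 0.0137% in SRF, each against pMSCV). Unlike for Traf1, fits without single libraries are not given for these calls with the block. Among 9 measured receptors, Cd40, a member of the TNF receptor family, fell in SRF-ICA1L (-1.73, edgeR adjusted p = 0.0320) and SRF-RELA (-2.28, edgeR adjusted p = 0.00803). Its levels were low, at 1.15, 1.23 and 3.46 CPM in pMSCV and 0.245, 0.183 and 0.886 CPM in SRF-RELA. Each library was also below the pMSCV library of its number in SRF (0.318, 0.320 and 1.26 CPM) and SRF-FOXO1 (0.0872, 0.281 and 0.401 CPM). SRF-PDGFRB had 0.0918 and 2.36 CPM. Of 23 measured kinases and adaptors, 0 were called in these 3 comparisons with the block, and the list's median log2 fold change was -0.063 in SRF, 0.076 in SRF-ICA1L and 0.082 in SRF-RELA, against 0.0041, 0.014 and 0.0073 for all genes.

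Of 11 negative regulators, 2 were called higher in SRF-RELA with the block, and 0 were called in SRF-ICA1L or SRF. Nfkbid, which encodes the nuclear IkappaB protein IkappaBNS, rose by 1.84 (edgeR adjusted p = 0.0217) from under 0.25 CPM in each pMSCV library to 0.832, 0.913 and 0.420 CPM. N4bp1, a regulator of the same pathway, rose by 0.52 (edgeR adjusted p = 0.0375), from 91.2, 99.7 and 83.4 CPM to 141, 120 and 129 CPM. It was at 146, 156 and 164 CPM in SRF-FOXO1 and 117, 109 and 119 CPM in SRF-ICA1L. SRF had 117, 85.1 and 84.0 CPM, and SRF-PDGFRB had 177 and 103 CPM.

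Of 19 measured other target genes, 3 were called higher in SRF-RELA against pMSCV with the block. The list's median log2 fold change was 0.45 in SRF-RELA, 0.32 in SRF-ICA1L and -0.027 in SRF. For all genes it was 0.0073, 0.014 and 0.0041. These medians were not tested. The chemokine gene Cxcl1 rose by 1.51 (edgeR adjusted p = 0.0114), with 75.9, 275 and 9.11 CPM in pMSCV and 222, 603 and 33.3 CPM in SRF-RELA, each replicate higher than the pMSCV library of its number. So was each SRF-ICA1L replicate, at 99.3, 485 and 20.1 CPM, where Cxcl1 was not called. Csf1 rose by 1.08 (edgeR adjusted p = 0.0342), and Cx3cl1, which encodes fractalkine, rose by 0.83 (edgeR adjusted p = 0.0175). Cx3cl1 was also the 1 target gene called in SRF-ICA1L (0.84, edgeR adjusted p = 0.0290). Against SRF, where 0.656% of all genes were called with the block, the cytokine gene Il6 rose by 2.86 in SRF-RELA (edgeR adjusted p = 0.0363) and Cx3cl1 by 1.05 (edgeR adjusted p = 0.0327). Il6 was at 0.454, 1.60 and 0 CPM in SRF and 2.25, 13.1 and 0.280 CPM in SRF-RELA. In pMSCV it was at 0.876, 5.07 and 0.140 CPM, each above the SRF library of its number. Il6 was not called in SRF-RELA against pMSCV. SRF-ICA1L had 3.32, 6.43 and 0.0458 CPM, SRF-FOXO1 had 0.567, 3.75 and 0.803 CPM, and SRF-PDGFRB had 4.04 and 0.356 CPM.

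The target genes also varied with the replicate number. By edgeR's F test in the 12 libraries, 15 of 19 differed with the number, 12 of them higher and 3 lower in replicate 2 than in replicate 1, and the list's median difference was 0.71 on the log2 scale against -0.0036 for all genes. Cxcl1 was 1.54 higher in replicate 2 and 2.94 lower in replicate 3 than in replicate 1, the same order as Nfkbia. Of the receptors 6 of 9 were called, of the kinases and adaptors 12 of 23, and of the negative regulators 4 of 11, against the 52% of all genes. The atypical inhibitor gene Nfkbiz was 1.31 higher in replicate 2 and 1.48 lower in replicate 3. Interferon-response genes were called in 9 of 12 cases, myoblast markers in 6 of 6, muscle fibre markers in 0 of 9 and immune cell markers in 1 of 3.

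The genes whose log2 CPM most resembled that of 4 members over the 17 libraries were ranked by Pearson's r among 11593 candidates, as a description in which all points share the libraries. Nfkbia was nearest to Zc3h12a (r = 0.98), Dnajb4 (0.96) and Junb (0.96). Rela was nearest to Lrrc28 (0.95), Tgif1 (0.95) and Spata2 (0.94). Tnfaip3 was nearest to Rela itself (0.93), followed by Tgif1 (0.92) and Smim3 (0.92). Traf1 was nearest to Mef2c (0.92), which encodes a muscle transcription factor, and then to D5Ertd615e (0.91) and Klhl30 (0.91). Mef2c ran from 0.459 CPM in the first SRF-PDGFRB library to 29.2 CPM in the first pMSCV library.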

How the data were processed

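The authors deposited 1 table of gene counts for 17 libraries, and its 15062 genes each had at least 10 counts in at least 3 libraries. Per the labels' protocols, stranded mRNA libraries were made from total RNA. The submitters' processing notes name FastQC 0.11.8, Trimmomatic 0.39, HISAT2, featureCounts, Subread 2.0.0 and the build GRCm38. The annotation and the strand setting of the counting are not given in the sources used here. There were 1531 genes without a symbol, at 0.555 to 1.13% of counts per library, and 1519 of these were named by their identifier.

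The members, lists and tests were chosen with earlier results of these data known. The genes named are the 10 members, the genes of the 4 pathway lists that were called, and the 3 genes most like each of Rela, Nfkbia, Tnfaip3 and Traf1.

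Counts were analysed with edgeR 4.0.16 (limma 3.58.1, R 4.3.3), with TMM scaling, a filter on low counts that removed 0 genes, and a threshold of 0.05 on the adjusted p. DESeq2 1.42.0 was an alternative. The scripts were tested on simulated data. Deviations from group means correlated at 0.392 to 0.789 in all 18 pairs of same-numbered libraries of SRF-RELA, SRF-ICA1L, SRF and pMSCV, which is the source of the pairing of these 12 libraries (14639 genes tested). For SRF-FOXO1 with pMSCV, SRF-ICA1L and SRF-RELA the correlations ran from -0.195 to 0.501, and with SRF from 0.220 to 0.330. The biological coefficient of variation was 36.5% over 17 libraries and 18.5% over the 12 with the block. Log2 CPM used a prior count of 2. RPKM divide TMM-scaled CPM by the union exon length in GENCODE vM21, which uses GRCm38. Every pair of libraries within a group differed by more than counting error (chi-square of 29 to 186 for each degree of freedom).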

Additional observations from a re-analysis of the deposited data

Results flagged for a closer look

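Relb stood on opposite sides of the pMSCV mean of 12.61 CPM in a pair of lines. The pMSCV libraries themselves were at 7.24, 20.8 and 9.81 CPM, so replicate 2 raised that mean. Both SRF-PDGFRB libraries (22.8 and 12.99 CPM) were above that mean and all 3 SRF libraries (8.27, 12.57 and 9.15 CPM) were below it, although the lower SRF-PDGFRB library and the highest SRF library lay close to it. All 3 SRF libraries and the lower SRF-PDGFRB library lay within the pMSCV range. The split around the mean was not tested itself. The comparison of SRF-PDGFRB with SRF gave a log2 fold change of 0.84 (SE 0.57), which edgeR's quasi-likelihood test did not call.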

How the results depend on the processing

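The number of members called was 0 in the 12 comparisons, and became 1 for SRF-FOXO1 against pMSCV with DESeq2, and 1 each for SRF-ICA1L and SRF-RELA against pMSCV with the replicate block in 12 libraries. Leaving out 1 library at a time kept it at 0 without the block. The block changed no other count of members. The count of members that differ with replicate number was 6, and 3 to 7 with 1 library left out. Directions turned for some members that were themselves not called in the comparison concerned, and the cause was not tested. In SRF-RELA against pMSCV, Tnfaip3 became -0.11 (block, all 17 libraries), -0.035 (block, 12 libraries), -0.84 (without replicate 2 in the 5 groups of 3, chosen after seeing the data) and -0.82 (without SRF-RELA replicate 2). Nfkbia became -0.36 without SRF-RELA replicate 2, and Rela 0.012 without SRF-RELA replicate 3. In SRF-PDGFRB against pMSCV, without its replicate 1, Nfkbia became -1.16 and Tnfaip3 -0.61. In SRF-RELA against SRF, Rela became -0.059 (without replicate 2 in the 5 groups), -0.0064 (without SRF replicate 3) and -0.11 (without SRF-RELA replicate 2), and Nfkbia -0.28 (without SRF-RELA replicate 2). With 1 library left out, the log2 fold changes in SRF-RELA against pMSCV ran from -0.36 to 1.73 for Nfkbia, -0.82 to 1.09 for Tnfaip3 and -0.22 to 0.012 for Rela. In SRF-PDGFRB against pMSCV they ran from -1.16 to 2.25 for Nfkbia and -0.61 to 2.35 for Tnfaip3, and in SRF-RELA against SRF from -0.28 to 1.77 for Nfkbia and -0.11 to 0.12 for Rela. Counts of all genes called moved more. For SRF-FOXO1 against pMSCV the count was 107, with 1363 in DESeq2, 178 with RLE size factors, 255 with at least 1 CPM in 3 libraries, 1021 with the block over 17 libraries, 1931 without replicate 2 in the 5 groups, 32 with the 2 groups alone and 0 to 355 with 1 library left out. For SRF-ICA1L and SRF-RELA against pMSCV it was 0, with 45 and 109 in DESeq2 and 437 and 949 with the block in 12 libraries. For SRF-FOXO1 against SRF it was 1, with 597 in DESeq2, 1259 without replicate 2 in the 5 groups, 528 with the 2 groups alone and 219 with the block added there. For SRF-PDGFRB against pMSCV it was 3, with 70 in DESeq2, 50 with the block and 1 to 75 with 1 library left out, and against SRF it was 8, with 58, 32 and 1 to 3. For SRF-RELA against SRF it was 1, with 9 in DESeq2 and 96 with the block in 12 libraries. For SRF-ICA1L against SRF it was 0, with 2 and 14, and for SRF-RELA against SRF-PDGFRB 1, with 30 in DESeq2 and 12 with the block. Depth limits Traf1, at 8 to 230 reads, more than Nfkbia, and groups of 2 or 3 libraries limit every comparison.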
